A study of Mus musculus with 9 samples.

Results

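The 8 genes described here encode proteins that bind stored mRNAs of male germ cells or act on their translation, namely Ybx1, Ybx2, Ybx3, Tarbp2, Prkra, Ddx25, Celf1 and Boll. They were taken by gene symbol from a table of 38685 genes and loci, and each symbol matched 1 row. RNA came from testes of C57BL/6 males, taken after removal of the tunica albuginea, with 3 libraries labelled WT (Prm2+/+), 3 labelled Prm2-heterozygous (Prm2+/-) and 3 labelled Prm2-deficient (Prm2-/-). Prm2 encodes protamine 2, and the mutant lines were made by CRISPR/Cas9 editing in oocytes. The ages of the males are not given in the sources used here. The libraries were prepared with QuantSeq, which reads polyadenylated RNA near its 3′ end, and values are normalized counts, that is counts divided by a size factor for each library. The comparisons ask whether loss of 1 or both Prm2 alleles goes along with other transcript levels of these regulators in the testis.

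Spermatids transcribe the protamine genes early and keep the mRNAs in repressed particles until the nucleus is remodelled. Y-box proteins bind RNA through a cold shock domain and are major components of these particles, while other RNA-binding proteins and helicases take part in the later activation. Too early as well as missing translation of protamine mRNA impairs sperm formation in mice. What was measured here is transcript level in whole testis, so neither the proteins nor translation were read, and fewer cells of a type and less RNA per cell cannot be told apart.

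A well-known target sequence of germ-cell Y-box proteins is the Y-box recognition sequence UCCAUCA in the 3′ UTR of protamine 1 mRNA. A window of 30 bases around it is shown because it ties the Y-box members to their best-known target. It lies at chr16:10796448-10796477 on the minus strand (GRCm38, GENCODE M21 transcripts), with the motif in capitals.
Prm1: agaatagcaagTCCATCAaaactcctgcgt
The motif, searched as TCCATCA on the transcript strand, started at base 18 of the 158 bases of this 3′ UTR. It was absent from the 190 bases of the 3′ UTR of Prm2. Among 18 listed mRNAs that are stored in spermatids, 2 (11.1%) held it anywhere in the 3′ UTR, Prm1 and Acr, against 10.4% of 21020 annotated 3′ UTRs. The listed 3′ UTRs had 63 to 290 bases, except that of Odf2 with 1085. The annotated ones were not matched to them in length, so these shares cannot be set against each other. Within the first 100 bases it was in 1 of the 15 listed 3′ UTRs that are long enough, against 0.783% of 19921 annotated ones. That 1 was Prm1, which was known beforehand to hold the motif, so this count tests nothing about the list. In Acr the motif started at base 103, outside this window.

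Y-box proteins owe their name to the Y-box of promoters, an inverted CCAAT motif. Promoters of Ybx2 and Tarbp2 are shown because these members had the largest differences between libraries. The sequences are RefSeq promoters of GRCm38.p6, from 250 bases before to 50 after the annotated start, and all 8 members had one. The Ybx2 window is chr11:69935649-69935948 and the Tarbp2 window chr15:102517942-102518241, both on the plus strand, with CCAAT or its complement ATTGG in capitals.
Ybx2: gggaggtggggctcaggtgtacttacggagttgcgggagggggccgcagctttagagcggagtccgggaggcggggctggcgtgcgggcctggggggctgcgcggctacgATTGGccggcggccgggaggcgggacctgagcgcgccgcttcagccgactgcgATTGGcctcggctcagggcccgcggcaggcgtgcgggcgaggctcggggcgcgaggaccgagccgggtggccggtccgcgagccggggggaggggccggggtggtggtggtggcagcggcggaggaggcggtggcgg
Tarbp2: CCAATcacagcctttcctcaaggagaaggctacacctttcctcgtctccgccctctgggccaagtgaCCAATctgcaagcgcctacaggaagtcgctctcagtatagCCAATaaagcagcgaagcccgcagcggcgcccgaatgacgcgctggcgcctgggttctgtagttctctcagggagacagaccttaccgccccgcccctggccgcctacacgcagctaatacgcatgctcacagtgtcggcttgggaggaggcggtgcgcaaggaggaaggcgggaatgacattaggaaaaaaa
The Ybx2 promoter held ATTGG at bases 111 and 164, and a second annotated Ybx2 promoter held neither motif. The Tarbp2 promoter held CCAAT at bases 1, 68 and 108. The Ybx1 promoter held 3 such motifs, Ddx25 had 1, 1 of the 2 Boll promoters had 1, and those of Ybx3, Prkra and Celf1 had none. In either orientation, 37.4% of 32851 promoters of this length held at least 1, 11.7% at least 2 and 3.37% at least 3.

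The targeted gene does not check the labels, since Prm2 transcript was not detectably lower in libraries labelled Prm2-/- (LFC 0.20 against Prm2+/+, 95% interval -0.10 to 0.50, adjusted p = 0.746 in limma). Genotypes below are therefore as labelled. Recovered counts per library were between 3629929 and 4490411. Replicate 3 of Prm2+/+ stood apart, with a mean correlation of 0.834 to the other libraries on log2 values of the 14893 tested genes, against 0.883 to 0.894 for the rest. For Tarbp2, Ybx1, Prkra and Ddx25, values against Prm2+/+ are also given without it. Markers of elongating spermatids, the cells that hold stored protamine mRNA, were abundant in every library (summed normalized counts of 6 markers 231426 to 249594 in Prm2+/+, 227358 to 244835 in Prm2+/- and 229169 to 244540 in Prm2-/-). These markers were Prm1, Prm2, Tnp1, Tnp2, Odf1 and Gapdhs. They include the targeted gene and are all on the list of stored mRNAs below, so the sum does not read cell content apart from those mRNAs. Summed markers of the other testis cell types overlapped between Prm2-/- and Prm2+/+, except those of 4 peritubular myoid genes at 293 to 325 in Prm2+/+, 254 to 277 in Prm2+/- and 226 to 271 in Prm2-/-. Single markers moved more than the sums show. Against Prm2+/+, LFCs of Sertoli markers ran from -0.09 to 2.03 for Prm2-/- and from -1.73 to 0.90 for Prm2+/-. Those of spermatocyte markers ran from -0.12 to 1.86 and from -1.90 to 2.06, and limma called none of either set. Of 6 markers of epididymal epithelium, 3 (Lcn5, Lcn8 and Spink12) were at 0 in all libraries, and the 6 summed to at most 21.9. Their part in the results below was not tested.

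All 8 members passed the filter on low counts. Values entered limma as log2 of the normalized count with 1 added, and a gene was called at a Benjamini-Hochberg adjusted p under 0.05 over all tested genes and a log2 fold change (LFC) beyond 0.5. Between Prm2-/- and Prm2+/+, 1 of the 8 members was called, Tarbp2, while 0.181% of all tested genes were called. Between Prm2+/- and Prm2+/+ it was again 1 of 8, Tarbp2, against 0.0806% of all tested genes. Between Prm2-/- and Prm2+/-, 0 of 8 were called, against 0.175%, and 1 member had an unadjusted p under 0.05 (edgeR called 0 and DESeq2 called 0, the latter with no adjusted p for Ybx2 on 9 libraries). The first pair of comparisons share the Prm2+/+ libraries, and so are not independent. The members were chosen with earlier results of these data known, so counts set beside the share of all tested genes are descriptions. The median LFC of the 8 members was 0.18 for Prm2-/- against Prm2+/+ and 0.13 for Prm2+/- against Prm2+/+, and that of all tested genes was 0.02 and 0.01. In each of these comparisons 4 members were higher and 4 lower. The members thus went different ways, and most of the size of change lay in Ybx2, Tarbp2 and Celf1.

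**Figure D1:**
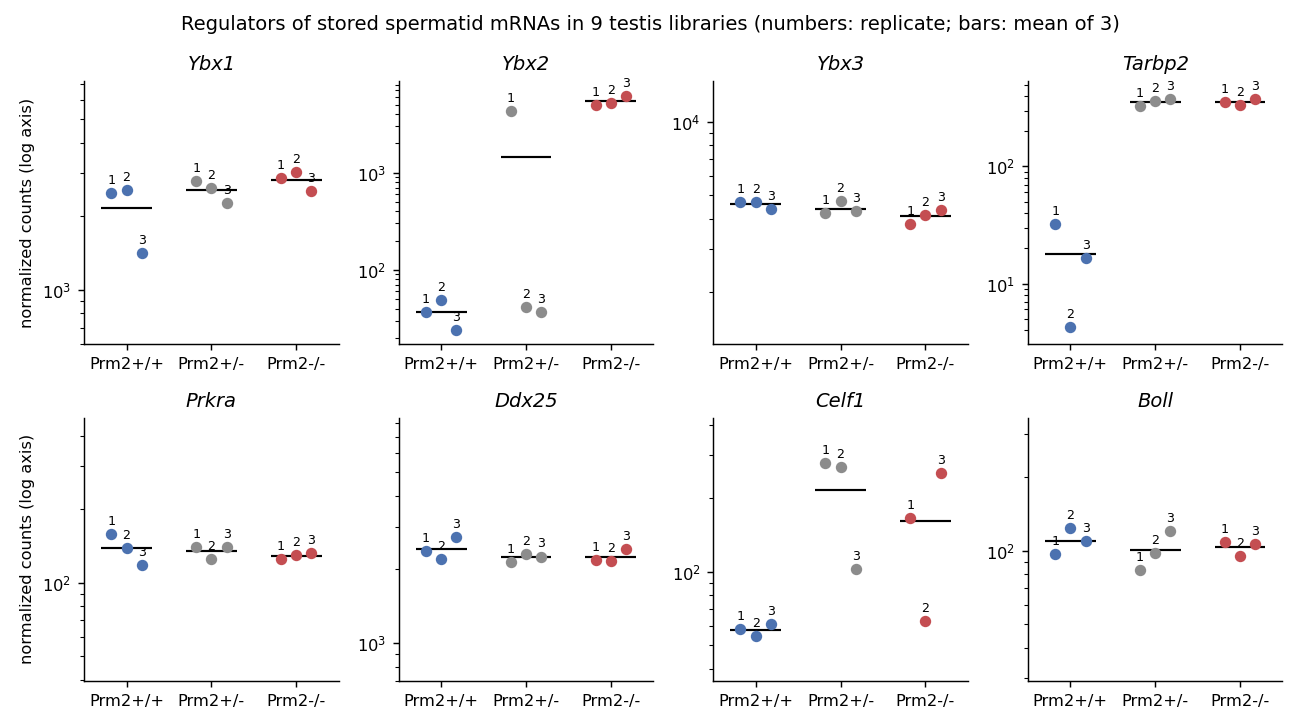
Normalized counts (log axis) of the 8 members in each library, by genotype as labelled; points are libraries with their replicate number and bars the mean of 3. Ybx2 lies between 4937 and 6164 in Prm2-/- and at 4274 in replicate 1 of Prm2+/-, against at most 49.3 elsewhere, and Tarbp2 is at 329 or more in all Prm2+/- and Prm2-/- libraries against at most 32.3 in Prm2+/+.

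Ybx2 (ENSMUSG00000018554, chr11:69935796-69941605, plus strand) encodes the germ-cell Y-box protein also known as MSY2, which binds and stabilises stored mRNAs of spermatids and oocytes. It had 37.1, 49.3 and 24.3 normalized counts in the Prm2+/+ libraries, 4274, 41.1 and 37.1 in Prm2+/- and 4937, 5230 and 6164 in Prm2-/- (replicates 1 to 3 in turn). All Prm2-/- libraries were high and all Prm2+/+ libraries low, with no overlap, while the Prm2+/- libraries were divided, replicate 1 being high and replicates 2 and 3 low. The means were 36.9 ± 12.5 in Prm2+/+ and 5444 ± 640 in Prm2-/- (SD, n = 3 each). The 5 low libraries had 22 to 46 recovered counts, so the row was detected in each of them. It is a locus named by StringTie. Whether it holds all Ybx2 transcripts was not tested, so its low values do not show that the mRNA was nearly absent. The mean of the 4 high libraries was 136 times that of the 5 low ones.

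The LFC of Ybx2 between Prm2-/- and Prm2+/+ was 7.22 (95% interval 3.50 to 10.93), the highest absolute LFC of all tested genes. It was not called in the fit to 9 libraries (adjusted p = 0.355 in limma), and neither was it in edgeR on recovered counts (adjusted p = 0.473). DESeq2 on 9 libraries gave it no adjusted p. In limma with only the 6 libraries of both genotypes, which leaves out the divided Prm2+/- group, the interval was 6.57 to 7.86 and the adjusted p 0.000626. In that fit Ybx2 was the 1 member of 8 called, against 0.356% of all tested genes. In limma with the 6 libraries compared, 0 of 8 members were called for Prm2+/- against Prm2+/+ (0.0806% of all genes) and 0 of 8 for Prm2-/- against Prm2+/- (0.349%).

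Between Prm2+/- and Prm2+/+, Ybx2 differed by an LFC of 2.38 (95% interval -1.33 to 6.10, adjusted p = 0.842 in limma). On recovered counts, where the mean follows the high library, edgeR gave 5.29 (adjusted p = 0.962). Prm2-/- and Prm2+/- libraries did not overlap, the LFC was 4.83 (95% interval 1.12 to 8.55) and the adjusted p 0.870 in limma. These calls turned on replicate 1 of Prm2+/-. Without it, Ybx2 was called in limma for Prm2-/- against Prm2+/+ (LFC 7.22, adjusted p = 5.86e-05) and against Prm2+/- (LFC 7.08, adjusted p = 0.000192). That made 2 of 8 members, Ybx2 and Tarbp2, against 0.282% of all tested genes in the former comparison and 1 of 8 against 0.329% in the latter. Without any other single library, Ybx2 was not called.

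The neighbours of Ybx2 did not show its pattern. Eif5a, 13838 bp away on the side of lower coordinates and coding for a translation factor, had 799 to 955 normalized counts in Prm2+/+, 794 to 1074 in Prm2+/- and 704 to 807 in Prm2-/-. Slc2a4, which encodes the insulin-responsive glucose transporter and lies 934 bp away on the other side, had between 0 and 6.34. Both lie on the strand opposite to Ybx2. The annotation gives Ybx2 5 transcripts with 5 different 3′ ends, which the single row of the table does not separate.

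Tarbp2 (ENSMUSG00000023051, chr15:102518192-102523676, plus strand) encodes a double-stranded RNA-binding protein that is a partner of Dicer and is needed in mice for timely translation of protamine mRNAs. It had 32.3, 4.29 and 16.6 normalized counts in Prm2+/+, 329, 363 and 379 in Prm2+/- and 354, 335 and 376 in Prm2-/-. Every library of both mutant genotypes was high, within a narrow range, and every Prm2+/+ library was low, with no overlap. The means were 17.7 ± 14.0 in Prm2+/+, 357 ± 25.4 in Prm2+/- and 355 ± 20.5 in Prm2-/- (SD, n = 3 each). The 3 low libraries rested on 4 to 34 recovered counts, so the fold is imprecise although its direction did not vary. Like that of Ybx2, this row is a locus named by StringTie. Whether it holds all Tarbp2 transcripts was not tested, so its low values do not show that the mRNA was nearly absent in Prm2+/+.

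The LFC of Tarbp2 was 4.61 for Prm2-/- against Prm2+/+ (95% interval 3.31 to 5.91, adjusted p = 0.0243 in limma). For Prm2+/- against Prm2+/+ it was 4.62 (95% interval 3.32 to 5.91, adjusted p = 0.0461 in limma). The mutant genotypes differed from each other by -0.01 (95% interval -1.30 to 1.29), so the interval of their ratio ran from 0.41-fold to 2.44-fold. That fit shares its estimate of spread over all 9 libraries, the low Prm2+/+ ones included. In limma with only the 6 libraries of the mutant genotypes, the interval was -0.23 to 0.21. Both calls are close to the threshold and depend on the setting. With the 6 libraries compared, the adjusted p in limma was 0.0898 for Prm2-/- and 0.265 for Prm2+/- against Prm2+/+. Leaving out 1 library at a time, Tarbp2 was called in 3 of 9 fits for Prm2-/- against Prm2+/+ (without replicate 1 or 2 of Prm2+/+ or replicate 1 of Prm2+/-). In the other 6 fits the adjusted p was 0.0536 to 0.0941. They left out, in turn, each Prm2-/- library, replicate 2 or 3 of Prm2+/-, or the Prm2+/+ library that stood apart, without which limma gave an adjusted p of 0.0546. Prm2+/- against Prm2+/+ gave a call in 2 of 9 fits (without replicate 1 or 2 of Prm2+/+) and an adjusted p of 0.0689 to 0.146 in the other 7. Without replicate 3 of Prm2+/+, the LFC was 4.74 for Prm2-/- and 4.75 for Prm2+/- (limma adjusted p = 0.0689 for the latter). The LFC remained between 3.88 and 5.21 in all fits without a library.

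The count models differed among themselves. In edgeR on 9 libraries Tarbp2 was the 1 member of 8 called for Prm2-/- against Prm2+/+ (adjusted p = 0.0273), against 0.161% of all tested genes. In edgeR on the 6 libraries compared it was instead Ybx2 (1 of 8, adjusted p = 0.001, against 0.262% of all genes), with Tarbp2 at 0.106. For Prm2+/-, edgeR called 0 of 8 against Prm2+/+, Tarbp2 having an adjusted p of 0.0543 on 9 libraries (0.0671% of all genes called) and 0.326 on 6 (0.0537% called). It also called 0 of 8 for Prm2-/- against Prm2+/-, against 0.154% of all genes on 9 libraries and 0.289% on 6. DESeq2 on 9 libraries called 1 of 8, Tarbp2, for Prm2-/- against Prm2+/+ (adjusted p = 1.88e-18, 0.88% of all genes called) and 1 of 8 for Prm2+/- against Prm2+/+ (adjusted p = 4.9e-18, 0.396% called). DESeq2 on the 6 libraries compared called 2 of 8 for Prm2-/- against Prm2+/+, Ybx2 and Tarbp2, where 1.55% of all genes were called. Between Prm2+/- and Prm2+/+ it called 2 of 8, Tarbp2 and Celf1, where 0.396% were called. For Prm2-/- against Prm2+/- DESeq2 called 0 of 8, where 0.718% of all genes were called on 9 libraries and 1.06% on 6.

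Map3k12, 1128 bp from Tarbp2 on the side of lower coordinates and coding for a neuronal stress kinase, had 7.73 to 152 normalized counts in Prm2+/+, 29.7 to 112 in Prm2+/- and 35.9 to 147 in Prm2-/-. Npff, a neuropeptide gene 163 bp away on the other side, had between 27.4 and 43.9 over all libraries, the 3 Prm2+/+ libraries being the highest. Both lie on the opposite strand to Tarbp2. Neither had the pattern of Tarbp2, for which the annotation lists 14 transcripts with 13 different 3′ ends.

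**Figure D2:**
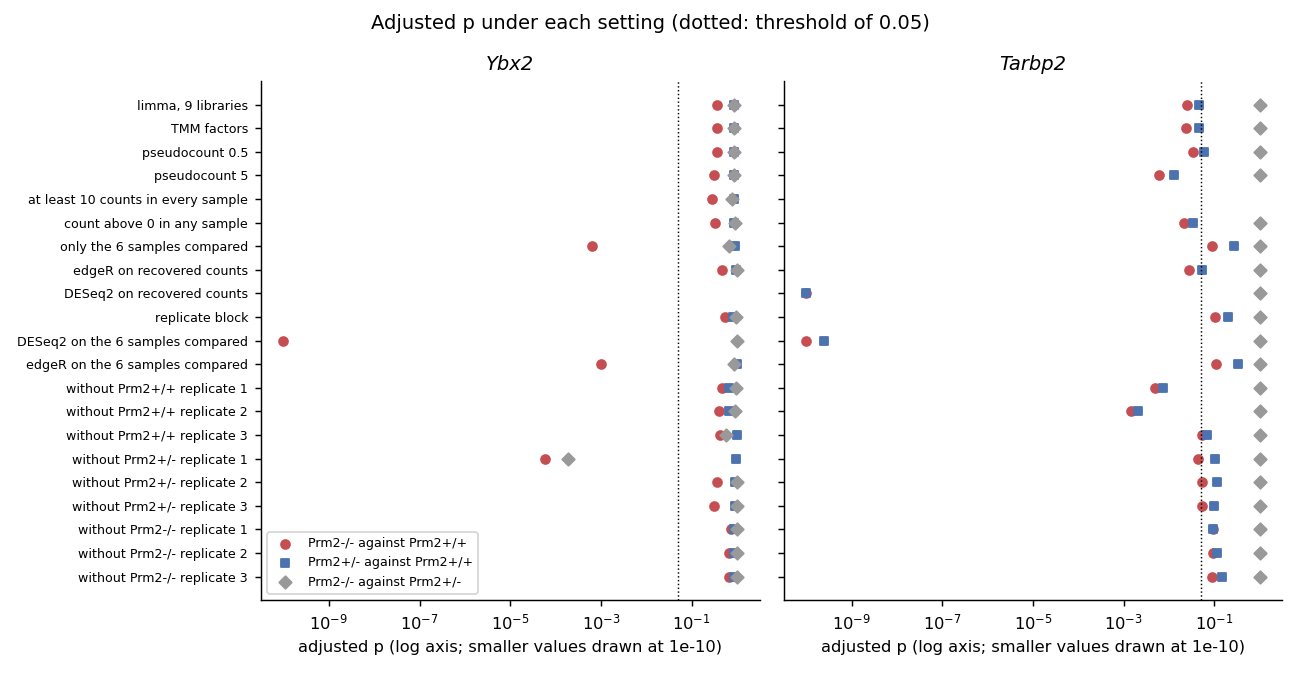
Adjusted p (log axis) of Ybx2 and Tarbp2 in each of 3 comparisons under every setting that gave one, with the threshold of 0.05 dotted. Ybx2 crosses it for Prm2-/- against Prm2+/+ where replicate 1 of Prm2+/- is not in the fit, and Tarbp2 lies on either side of it for both comparisons with Prm2+/+.

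Ybx2 and Tarbp2 shared a shape in which each library took a high or a low level with nothing between. As a description, a gene was counted as high-or-low when its largest gap between neighbouring libraries was at least 2 on the log2 scale and exceeded the range on either side. By this measure 2 of the 8 members were high-or-low, against 13.2% (1970) of all tested genes. The gap was 6.41 for Ybx2 and 3.31 for Tarbp2, and the lowest high library was 86.7 and 10.2 times the highest low one. Celf1 had a largest gap of 0.70, and the other members were below that. The high-or-low genes fell into 360 different divisions of the libraries. Of these genes, 508 set replicate 3 of Prm2+/+ apart alone (496 of them low there), against 49 to 79 for each of the other libraries, and 13 were high in the Prm2-/- libraries alone.

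The division of Ybx2, with replicate 1 of Prm2+/- on the side of Prm2-/-, was that of 9 genes in the same direction, Ybx2 included, and 1 further gene in the opposite one. The others were Bspry, Fam53c, Kctd2, Pard6a, Phb2, Porcn, Rasal1 and Spatc1l. For comparison, 5 genes were high with Prm2-/- in replicate 2 of Prm2+/- and 3 in replicate 3. Phb2, which encodes the mitochondrial scaffold protein prohibitin 2, was at 313 to 350 normalized counts in the high libraries and 7.73 to 32.3 in the low ones. Spatc1l was at 479 to 564 and 5.48 to 28.9. The division of Tarbp2 was that of 6 genes, the others being Gm27246, Gm45442, Unc93b1, Usb1 and Yjefn3. Those 5 were listed at 0 in all Prm2+/+ libraries, whereas Tarbp2 was detected there. Usb1, which trims the end of U6 spliceosomal RNA, was at 99.4 to 147 in the high libraries.

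**Figure D3:**
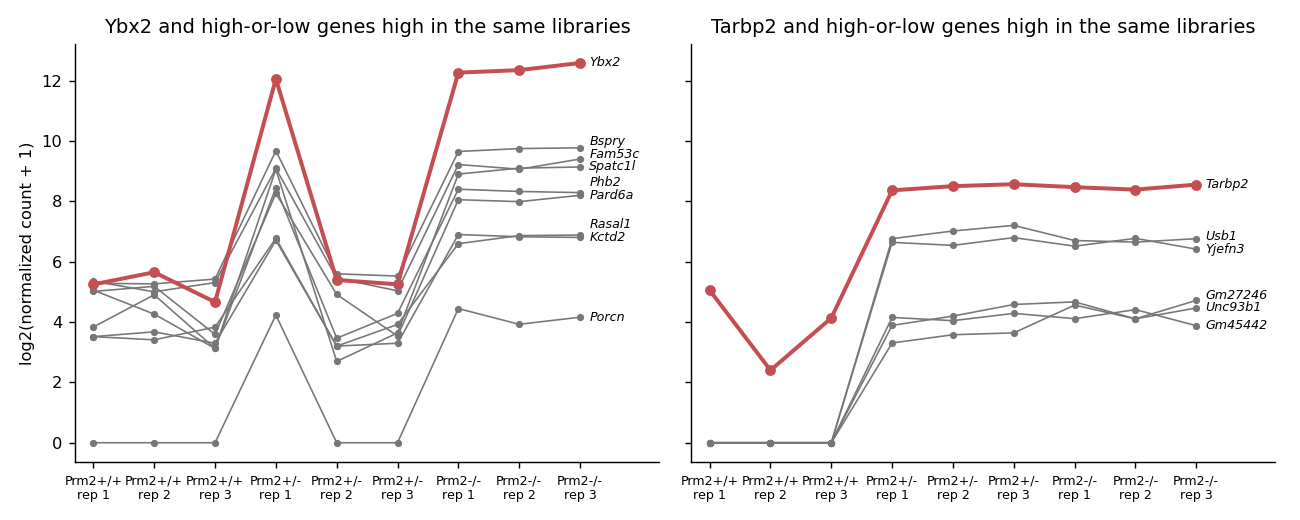
log2 of the normalized count plus 1 in each of 9 libraries for Ybx2 (left) and Tarbp2 (right), in red, with the high-or-low genes that were high in the same libraries, in grey. Each line changes level between the same libraries, replicate 1 of Prm2+/- joining the Prm2-/- libraries on the left.

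Across the 9 libraries the log2 values most like those of Ybx2 were Kctd2 (Pearson r = 0.997), Bspry (0.996) and Porcn (0.995), and the most opposite ones Art1 (-0.979), Atpaf2 (-0.945) and Tmem35a (-0.944). For Tarbp2 they were Mia3 (0.965), Camta1 (0.961) and Usb1 (0.959), with Btbd7 (-0.978), 4930412F12Rik (-0.977) and AI429214 (-0.952) at the other end. These are descriptions over 9 libraries that all genes share, picked from 14893 genes. Art1, an ADP-ribosyltransferase gene, was at 56.6 to 103 normalized counts in the libraries where Ybx2 was low and at 2.03 to 5.93 where it was high. Btbd7 moved far less, from 248 to 298 in Prm2+/+ and 214 to 225 in all other libraries.

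Ybx1 and Ybx3, the other Y-box members, did not share the pattern of Ybx2. Ybx1 (ENSMUSG00000028639, chr4:119277981-119294604, minus strand) encodes the widely expressed Y-box protein MSY1. It had 2492, 2567 and 1409 normalized counts in Prm2+/+, 2786, 2614 and 2261 in Prm2+/- and 2884, 3046 and 2548 in Prm2-/-. Its lowest value was that of replicate 3 of Prm2+/+, the library that stood apart, and the groups overlapped. The LFC for Prm2-/- against Prm2+/+ was 0.44 (95% interval -0.07 to 0.95, adjusted p = 0.719 in limma) and fell to 0.16 (adjusted p = 0.726) without that library. Between Prm2+/- and Prm2+/+ it was 0.29 (adjusted p = 0.842) and 0.01 (adjusted p = 0.999) without it. A processed pseudogene of Ybx1 is in the annotation, so that assignment of its reads is uncertain.

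Ybx3 (ENSMUSG00000030189, chr6:131364855-131388476, minus strand) encodes MSY4, a repressor of protamine mRNA that binds the sequence shown above for Prm1. It had 4687, 4677 and 4392 normalized counts in Prm2+/+, 4201, 4702 and 4288 in Prm2+/- and 3810, 4128 and 4355 in Prm2-/-. All Prm2-/- libraries were below all Prm2+/+ libraries, the closest by 4392 against 4355, while the Prm2+/- libraries spanned both. The LFC for Prm2-/- against Prm2+/+ was -0.16 (95% interval -0.33 to 0.00, adjusted p = 0.696 in limma), within the threshold of 0.5 over its whole interval. It was -0.06 for Prm2+/- against Prm2+/+ and -0.10 for Prm2-/- against Prm2+/-.

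Celf1 (ENSMUSG00000005506, chr2:90940382-91019497, plus strand) encodes a protein that binds GU-rich elements, acts on splicing, decay and translation, and is needed for spermiogenesis in mice. It had 58.0, 54.7 and 60.8 normalized counts in Prm2+/+, 279, 268 and 102 in Prm2+/- and 166, 62.9 and 254 in Prm2-/-. The Prm2+/+ libraries lay close together and below all others, whereas both mutant genotypes spread widely and replicate 2 of Prm2-/- was almost at the level of Prm2+/+. The means were 57.8 ± 3.06 in Prm2+/+, 216 ± 98.7 in Prm2+/- and 161 ± 95.9 in Prm2-/- (SD, n = 3 each). The LFC was 1.25 for Prm2-/- against Prm2+/+ (95% interval -0.00 to 2.50, adjusted p = 0.686 in limma) and 1.75 for Prm2+/- against Prm2+/+ (95% interval 0.50 to 3.01, adjusted p = 0.842 in limma). The former ranged from 0.81 to 1.81 with each library left out. Only DESeq2 on the 6 libraries compared, of the settings run, called it, for Prm2+/- against Prm2+/+ (adjusted p = 0.0105). Its annotation holds 14 transcripts with 7 different 3′ ends. Its neighbour Ptpmt1, a mitochondrial phosphatase gene, had 75.1 to 204 normalized counts in Prm2+/+, 175 to 225 in Prm2+/- and 159 to 205 in Prm2-/-.

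Prkra, Ddx25 and Boll differed little between the genotypes. Prkra (ENSMUSG00000002731, chr2:76629898-76648015, minus strand) encodes PACT, a relative of TARBP2 that activates the kinase PKR. It had 159, 138 and 118 normalized counts in Prm2+/+, 140, 125 and 140 in Prm2+/- and 125, 130 and 132 in Prm2-/-. The groups overlapped in every comparison, with an LFC of -0.09 for Prm2-/- against Prm2+/+ (95% interval -0.39 to 0.21, adjusted p = 0.856 in limma) and of -0.20 (adjusted p = 0.684) without replicate 3 of Prm2+/+, its lowest library. For Prm2+/- it was -0.02, and -0.13 (limma adjusted p = 0.979) without that library. Thus Prkra did not show the shift of Tarbp2, though both encode double-stranded RNA-binding proteins.

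Ddx25 (ENSMUSG00000032101, chr9:35536647-35558528, minus strand) encodes a testicular RNA helicase, also called GRTH, that takes mRNAs from the nucleus to the chromatoid body and polysomes of spermatids. It had 2376, 2201 and 2715 normalized counts in Prm2+/+, 2155, 2321 and 2260 in Prm2+/- and 2183, 2164 and 2421 in Prm2-/-. The highest value was in replicate 3 of Prm2+/+, and the groups overlapped. The LFC for Prm2-/- against Prm2+/+ was -0.10 (95% interval -0.31 to 0.11, adjusted p = 0.774 in limma) and -0.02 (adjusted p = 0.957) without that library. For Prm2+/- it was -0.11, and -0.03 (limma adjusted p = 0.997) without that library. It has 1 annotated transcript.

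Boll (ENSMUSG00000025977, chr1:55248658-55363469, minus strand) encodes the DAZ family protein BOULE, which male germ cells need to pass the round spermatid stage. It had 96.9, 123 and 109 normalized counts in Prm2+/+, 83.0, 97.7 and 120 in Prm2+/- and 109, 95.4 and 107 in Prm2-/-. The groups overlapped, and the LFC was -0.08 for Prm2-/- against Prm2+/+ (95% interval -0.46 to 0.30, adjusted p = 0.910 in limma). For Prkra, Ddx25 and Boll, the widest 95% intervals of the LFC against Prm2+/+ were those of Boll, the one for Prm2+/- running from -0.52 to 0.24. As a fold, the interval for Boll between Prm2-/- and Prm2+/+ ran from 0.73 to 1.23.

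Counted by separation, 4 of the 8 members (Ybx2, Ybx3, Tarbp2 and Celf1) had no overlap between Prm2-/- and Prm2+/+ libraries, against 14% of all tested genes. The study had already named Ybx2 and Tarbp2 among the genes upregulated in Prm2-/- testes, so this count describes the members and tests nothing. For Prm2+/- against Prm2+/+ they were 2 of 8 (Tarbp2 and Celf1) against 9.44%, and for Prm2-/- against Prm2+/- 1 of 8 (Ybx2) against 14.7%. The separations differed greatly in size, as a ratio, from 4392 against 4355 normalized counts for Ybx3 to 4937 against 49.3 for Ybx2.

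**Figure D4:**
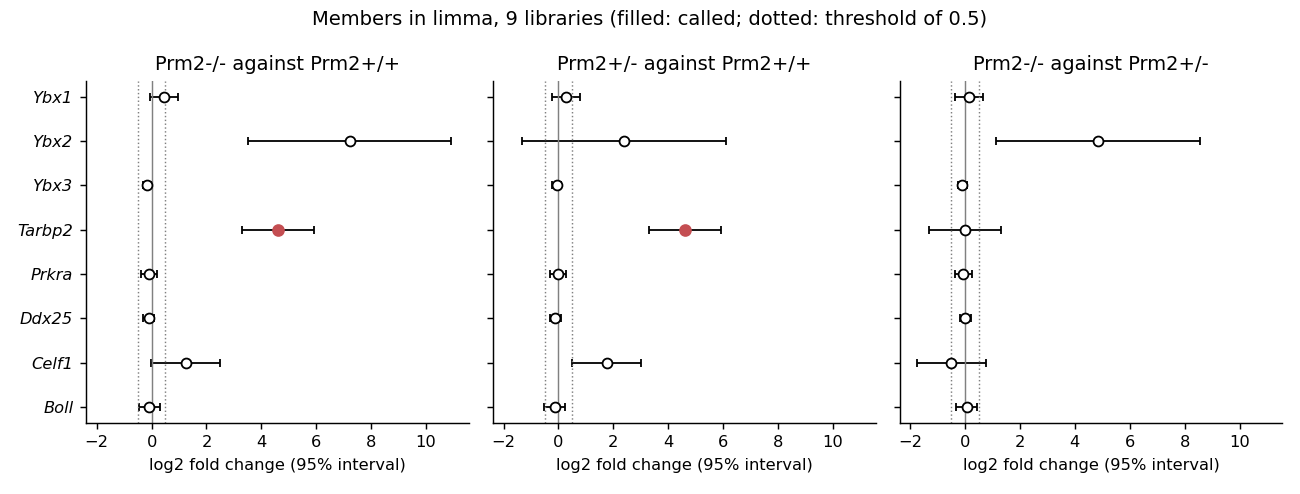
LFC with 95% intervals of the 8 members in 3 comparisons, from limma on 9 libraries; filled points were called and dotted lines mark an LFC of 0.5 in either direction. Only Tarbp2 is filled, at 4.61 and 4.62, and the wide interval of Ybx2 runs from 3.50 to 10.93 for Prm2-/- against Prm2+/+.

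Other regulators of translation in germ cells were read from a list of 60 genes, of which 57 were tested. In limma and in edgeR on 9 libraries, 0 of 57 were called in each comparison, where limma called 0.0806% to 0.181% and edgeR 0.0671% to 0.161% of all genes. DESeq2 on 9 libraries also called 0 against Prm2+/+, and 1 between Prm2-/- and Prm2+/-, where it called 0.718% of all genes. An unadjusted p under 0.05 was reached by 2 for Prm2-/- against Prm2+/+, 4 for Prm2+/- against Prm2+/+ and 3 for Prm2-/- against Prm2+/-, and by 7.33%, 4.24% and 5.44% of all tested genes in turn. The median LFC of the list was 0.11, -0.00 and 0.06 in these comparisons. Between Prm2-/- and Prm2+/+, 33 of 57 were higher in Prm2-/-. Of the 57 genes, 7 were high-or-low (Lin28a, Ago1, Mbnl2, Tsnax, Cpeb2, Cpeb4 and Fxr2), and none of them had the division of Ybx2 or Tarbp2.

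Within the list, the gene with the smallest p between Prm2-/- and Prm2+/+ stands for each group. Lin28a, a cold shock domain protein of spermatogonia that blocks let-7 maturation, had a fitted LFC of -2.61 (limma adjusted p = 0.705) at 14.8 normalized counts or less. Ago3, an Argonaute protein, had -0.36 (adjusted p = 0.740), and Dazap1, an RNA-binding partner of DAZ, had -0.47 (adjusted p = 0.622). Ptbp1, a polypyrimidine tract binding splicing factor, had -1.50 (adjusted p = 0.746), with libraries between 17.2 and 150 in Prm2-/- and 42.8 and 182 in Prm2+/+. Ddx19a, an mRNA export helicase, had 0.26 (adjusted p = 0.732), and Cpeb3, which binds cytoplasmic polyadenylation elements, had 0.78 (adjusted p = 0.545). Eif4g1, the scaffold of the cap-binding complex, had -0.26 (adjusted p = 0.722). None of these passed the test.

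Stored spermatid mRNAs were read from a list of 18, all tested. In limma and edgeR on 9 libraries, 0 of 18 were called in each comparison. Limma called 0.0806% to 0.181% of all tested genes there, and edgeR 0.0671% to 0.161%. Between Prm2-/- and Prm2+/+, 4 had an unadjusted p under 0.05, 10 were higher and the median LFC was 0.04. Between Prm2+/- and Prm2+/+ none had one (0), 5 were higher and the median was -0.05. Between Prm2-/- and Prm2+/-, 2 had one, 9 were higher and the median was 0.01. Of all tested genes, 7.33%, 4.24% and 5.44% had one in these comparisons. Prm1, whose 3′ UTR holds the motif shown above, differed by an LFC of -0.01 between Prm2-/- and Prm2+/+ (95% interval -0.17 to 0.15, adjusted p = 0.983 in limma). Its means were 102125 ± 9495 in Prm2+/+, 103530 ± 4685 in Prm2+/- and 101082 ± 2986 in Prm2-/- (SD, n = 3 each).

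The smallest p among stored mRNAs was that of Akap3, a scaffold of the sperm fibrous sheath. It had 143, 146 and 129 normalized counts in Prm2+/+, 149, 125 and 106 in Prm2+/- and 281, 273 and 226 in Prm2-/-. All Prm2-/- libraries were above all others, and the LFC against Prm2+/+ was 0.89 (95% interval 0.54 to 1.24, adjusted p = 0.142 in limma). DESeq2 called 2 of 18 in this comparison, Akap3 and Odf2, against 0.88% of all tested genes on 9 libraries and 1.55% on the 6 compared. Odf2, a protein of the outer dense fibres, was named after its values were seen (LFC 0.51, 95% interval 0.23 to 0.80 in limma). Of the 18, 2 were high-or-low, Akap4 and Ldhc, also named after their values were seen. Akap4, the main fibrous sheath scaffold, had 208, 2133 and 194 normalized counts in Prm2+/+, 1935, 1910 and 272 in Prm2+/- and 2077, 1980 and 2148 in Prm2-/-. It was high in all Prm2-/- libraries, as Ybx2 was, but also in 1 Prm2+/+ library and in another set of Prm2+/- libraries (LFC 2.22 against Prm2+/+, adjusted p = 0.710 in limma). Ldhc, the sperm lactate dehydrogenase, was at 2505 in replicate 3 of Prm2+/+ and at 27414 to 36393 in all other libraries. No listed regulator or stored mRNA had an absolute LFC as large as that of Ybx2 or Tarbp2 between Prm2-/- and Prm2+/+.

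**Figure D5:**
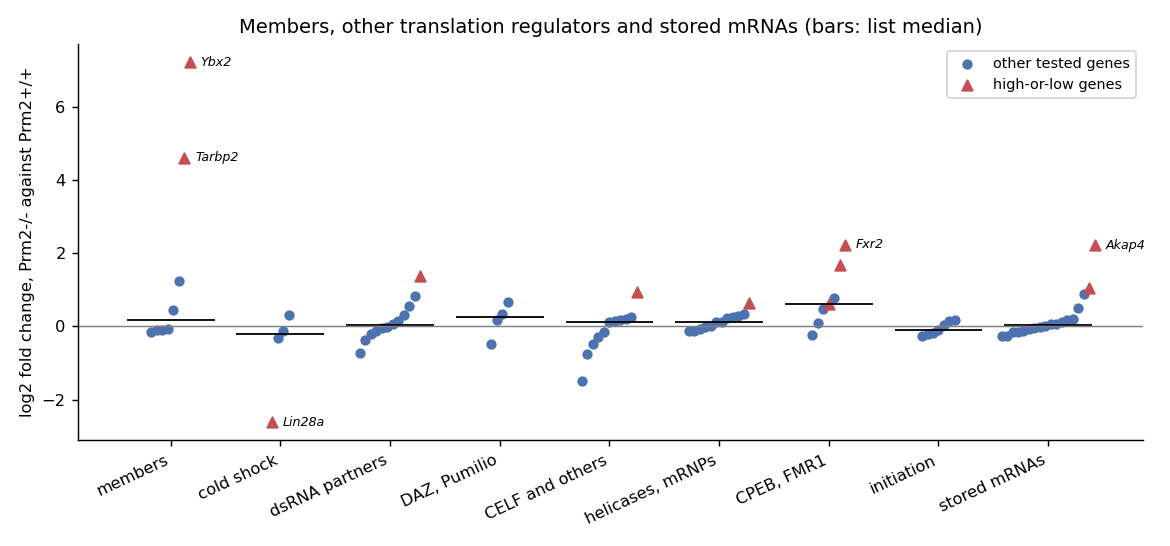
LFC for Prm2-/- against Prm2+/+ of each tested member, of the 57 other translation regulators in 7 groups and of 18 stored mRNAs, with the list median as a bar and high-or-low genes as triangles. Ybx2 (7.22) and Tarbp2 (4.61) lie above all listed genes, and Lin28a (-2.61) is the lowest.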

How the data were processed

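RNA of 9 testes (3 per genotype, 50-base reads) was analysed from the deposited table. The submitters' processing notes and the study's methods name Trim Galore 0.4.5, HISAT2 2.1 on GRCm38 with Ensembl release 89, StringTie 1.3.3 with its script for gene-level counts, removal of pseudogenes, and DESeq2. What the authors deposited is a signal: normalized counts, scaled by 1 size factor per library. Divided by the smallest step of its library, each value (100%) came out whole within 0.001, and these whole numbers are the recovered counts. The step was nearest to 1 in replicate 1 of Prm2+/- (0.989) and replicate 2 of Prm2-/- (1.01), where the values were whole by the same tolerance. StringTie derives counts from coverage, and so they may not be on the scale of reads. The rows of all 8 members are loci named by StringTie, as are 22839 of the 38685 rows. Positions came from GENCODE M21, which uses GRCm38 (38520 rows or 99.6% matched), and 0 columns lacked a sample. The table holds no comparisons of the authors.

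The study tested counts with DESeq2. As the deposited unit is normalized, limma (lmFit, then eBayes with trend) with a pseudocount of 1 on the log2 scale was the main test, with all 9 libraries, genotype as the only term and 14893 genes kept by filterByExpr. A larger pseudocount shrank the LFC of Tarbp2 for Prm2-/- against Prm2+/+, from 4.68 with 0.5 to 4.20 with 5. With 1 it was 4.61, while edgeR on 9 libraries gave 4.31. Fold changes of low genes thus depend on the scale. Calls used adjusted p under 0.05 (Benjamini-Hochberg) and LFC beyond 0.5. The study describes the libraries of a genotype as biological replicates, and the p-values rest on the spread between them. Precision in low libraries is limited by few counts. Members and lists were chosen with earlier results of these data known, so no list was tested as such. Named genes are all members, Prm1 and Prm2, and from each list called genes or, with none, that of smallest p between Prm2-/- and Prm2+/+. Like and opposite genes were the 3 at each end for high-or-low members. Others were named after their values were seen. Alternatives covered scaling (TMM), pseudocount, filter, libraries in the fit, edgeR, DESeq2, a replicate block and leaving out each library. DESeq2 and edgeR on 6 libraries were added after seeing the data. Scripts were tested on simulated data. Tests ran in R 4.3.3 (DESeq2 1.42.0, edgeR 4.0.16, limma 3.58.1), and tables and figures were made in Python 3.11.15 with pandas 2.3.3, numpy 2.4.6 and matplotlib 3.10.9. Same-numbered replicates did not deviate together over the tested genes (correlations -0.04 to 0.04), and the main test did not pair them. This check cannot show whether they shared a litter or preparation, which the sources used here do not give. Insl3 and Izumo1 were not analysed here.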

Additional observations from a re-analysis of the deposited data

How the results depend on the processing

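For Prm2-/- against Prm2+/+, 1 member was called in the fit to 9 libraries. The count was 0 with at least 10 counts in every sample (Tarbp2 is then not tested), 0 with the replicate block and 2 with DESeq2 on the 6 libraries compared, and 0 to 2 with each library left out. For Prm2+/- against Prm2+/+, with 1 called, it was 0 with a pseudocount of 0.5, with at least 10 counts in every sample, with only the 6 libraries compared, with edgeR on 9 or 6 libraries and with the replicate block, 2 with DESeq2 on 6 libraries and 0 to 1 with each library left out. For Prm2-/- against Prm2+/- it was 0 to 1 with each library left out. Among other regulators in that comparison, 1 was called by DESeq2 on 9 and on 6 libraries and in limma without replicate 3 of Prm2+/+ (0 to 1 over the fits without a library), in each case Adarb1, named after its values were seen. Among stored mRNAs DESeq2 on 9 and on 6 libraries called 2, Odf2 and Akap3, for Prm2-/- against Prm2+/+ and 2, the same pair, against Prm2+/-. The latter count was 0 to 1 with each library left out. With the replicate block, the adjusted p of Tarbp2 was 0.101 for Prm2-/- and 0.201 for Prm2+/- against Prm2+/+ in limma, and that of Ybx2 was 0.534 for Prm2-/- against Prm2+/+. The block changed no other member call. The causes of these changes were not tested. For the filters, pseudocounts, replicate block and most fits without a library, the share of all tested genes called is not given here. Counts under those settings therefore cannot be set against such a share. The sign of small, uncalled LFCs changed in 12 cases. Between Prm2-/- and Prm2+/-, Tarbp2 was 0.0018 in edgeR on 6 libraries, and with each library left out Tarbp2 was -0.064 to 0.037, Ddx25 -0.046 to 0.035, Celf1 -0.97 to 0.059 and Boll -0.067 to 0.20. Likewise, against Prm2+/+, Prkra was -0.20 to 0.012 for Prm2-/- and -0.13 to 0.079 for Prm2+/-, and Boll -0.17 to 0.0060 for Prm2-/-. DESeq2 gave Ybx2 no adjusted p on 9 libraries in any of the 3 comparisons, nor on 6 libraries for Prm2+/- against Prm2+/+. Of the settings that gave one, 434 for member LFCs stayed on their side of the threshold with their sign, 21 lost a call and 6 gained one.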
